A study of Mus musculus with 14 samples.

Results

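The 7 genes described here encode receptors of the ErbB family, LRIG proteins and an inhibitor of EGFR. Egfr, Erbb2 and Erbb3 are receptor genes, Lrig1, Lrig2 and Lrig3 encode LRIG transmembrane proteins, and Errfi1 encodes the intracellular inhibitor also known as MIG6. They were chosen by name, as the Lrig and ErbB genes plus Errfi1, from 55228 gene symbols in the count table. All 7 passed the filter on low counts, which kept 11757 genes for testing. Their transcripts were counted in 14 RNA-seq libraries of mouse tail epidermal cells that carried the alleles Lrig1CreER and Rosa-TdTomato. Cells labelled "Lrig1 GL" were sorted for the surface antigen Sca1, which enriches for the upper hair follicle, and grown in keratinocyte medium for 1 week before sequencing. The time label of all libraries is 8w pw1, the treatment label is "none", and no age of the animals is given. The regions compared are Ctrl, outside the memory zone (8 libraries), and Distal, the distal memory region of the tail (6 libraries). The question was how cells of these regions differ once both have been taken out of the tissue. The Lrig1CreER allele, in which a tamoxifen-dependent recombinase is driven from Lrig1, is common to both regions, and the labels do not say whether it changes transcription of Lrig1 itself.

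ErbB receptors are tyrosine kinases of the cell surface that bind ligands of the EGF and neuregulin families, pair with each other, and signal through RAS, ERK and AKT. ERBB2 binds no known ligand and acts as the preferred partner of the others, whereas ERBB3 has little kinase activity and recruits PI3 kinase. In epidermis the EGF receptor drives the growth and migration of keratinocytes, and LRIG1, which marks progenitors of the upper hair follicle, lowers the amount of ErbB receptor at the membrane. ERRFI1 binds the kinase domain of activated EGFR and blocks it, and its gene is induced by the same pathway.

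The libraries fall into 4 sets by their descriptions, CTRL1 (6 libraries) and CTRL2 (2) in the Ctrl region, and MEM1 (2) and MEM2 (4) in the Distal region. No set holds both regions, so set and region cannot be told apart. The labels do not tie libraries to separate animals or cultures. The spread on which the p-values rest is therefore the one among these libraries, and it may be technical. Total counts were 4515646 to 7458872 in Ctrl and 2137934 to 4513518 in Distal libraries, without overlap. The keratinocyte markers Krt5, Krt14, Trp63, Cdh1, Itga6, Itgb4 and Dsp were detected in every library; the 8 markers of that list summed to 11488 to 18166 CPM (counts scaled to the library total after TMM adjustment) in Ctrl and 17671 to 25287 CPM in Distal. Its members differed in direction: the means of Krt14 (3989 and 9224 CPM), Krt5 (2065 and 4330 CPM) and Itgb4 (378 and 922 CPM) were higher in Distal, and those of Dsp (6443 and 5029 CPM), Cdh1 (1433 and 1157 CPM), Itga6 (497 and 279 CPM) and Trp63 (210 and 111 CPM) were lower. Of 6 markers of the upper hair follicle, Plet1, Ly6a (the gene of Sca1), Krt79, Cd44 and Krt17 were detected in every library and Gata6 reached at most 3.61 CPM; they summed to 8909 to 11585 CPM in Ctrl and 13628 to 19118 CPM in Distal. The higher sum came mostly from Krt17 (means of 3548 CPM in Ctrl and 10797 CPM in Distal), whereas the means of Ly6a (1880 and 1388 CPM) and Cd44 (4434 and 3196 CPM) were lower in Distal. The 8 fibroblast markers summed to 0.535 to 245 CPM in Ctrl and 2.30 to 93.5 CPM in Distal, with both maxima in single libraries, Ctrl replicate 1 and Distal replicate 3. The melanocyte markers Dct and Sox10, the endothelial markers Cdh5 and Emcn, and the immune markers Cd3e, Cd207 and Tyrobp were at 0 in all 14 libraries. The rest of these lists had counts. Endothelial Kdr was detected in every library, at up to 9.18 CPM, and Pecam1 had 57 counts over all libraries. Immune Cd74, Ptprc and Lyz2 had 9, 3 and 2 counts, and 7 markers of melanocytes and Schwann cells had a count.

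Lrig1 and Erbb2 were the members with higher transcript levels in Distal cells, and Lrig2, Egfr and Erbb3 were the lower ones. The stretches of 250 bases before the transcription start, from RefSeq on GRCm38.p6, are shown for the 2 members that rose and for the 2 lower members with the smallest p, 5′ to 3′ on the gene's strand. Capitals mark matches, on either strand, to the GC box GGGCGG or the CCAAT box CCAAT.
Lrig1, chr6:94700146-94700395, minus strand: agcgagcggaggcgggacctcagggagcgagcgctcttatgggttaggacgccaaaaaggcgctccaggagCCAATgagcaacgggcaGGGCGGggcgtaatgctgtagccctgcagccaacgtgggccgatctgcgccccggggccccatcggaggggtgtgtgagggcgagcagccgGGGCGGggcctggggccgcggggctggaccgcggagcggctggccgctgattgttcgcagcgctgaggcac
Erbb2, chr11:98412234-98412483, plus strand: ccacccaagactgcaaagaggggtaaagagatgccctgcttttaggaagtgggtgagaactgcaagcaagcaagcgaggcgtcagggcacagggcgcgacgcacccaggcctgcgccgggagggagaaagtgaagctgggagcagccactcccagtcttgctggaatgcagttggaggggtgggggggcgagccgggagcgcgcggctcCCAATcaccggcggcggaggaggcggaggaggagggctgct
Lrig2, chr3:104511919-104512168, minus strand: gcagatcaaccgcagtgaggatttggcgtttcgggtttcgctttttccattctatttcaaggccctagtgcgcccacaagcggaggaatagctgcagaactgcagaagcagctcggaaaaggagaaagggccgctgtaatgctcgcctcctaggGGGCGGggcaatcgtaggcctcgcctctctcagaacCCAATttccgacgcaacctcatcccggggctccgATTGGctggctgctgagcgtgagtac
Egfr, chr11:16751953-16752202, plus strand: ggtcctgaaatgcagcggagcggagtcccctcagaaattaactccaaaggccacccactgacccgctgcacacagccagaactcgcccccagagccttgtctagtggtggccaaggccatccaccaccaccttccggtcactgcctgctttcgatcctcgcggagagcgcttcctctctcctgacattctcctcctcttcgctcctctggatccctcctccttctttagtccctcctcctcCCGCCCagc

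These 4 stretches had a GC content of 71.6% (Lrig1), 66.0% (Erbb2), 57.6% (Lrig2) and 60.8% (Egfr), and all lay above the median of 52.4% over 32851 mouse promoters of the same length. The Lrig1 stretch held 26 CpG dinucleotides, that of Erbb2 16, that of Lrig2 17 and that of Egfr 11, against a median of 6. The GC box was matched 2 times upstream of Lrig1 and 1 time each upstream of Lrig2 and Egfr. It is present in 32.7% of all promoters of that length. The CCAAT box, present in 33.8%, was matched 1 time each upstream of Lrig1 and Erbb2 and 2 times upstream of Lrig2. The TATA box TATAAA (12.4% of all promoters) and the AP-1 motif TGANTCA (6.75%) were not matched in these 4 stretches. Among the other members, Lrig3 had a stretch with 66.0% GC and 27 CpG. Errfi1 has 2 starts in that table, 1 with 38.0% GC and 1 CpG, and 1 with 64.8% GC, 30 CpG and a TATA box whose first base lies 28 bases before the start.

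Levels of different genes can be compared only per length, here as CPM per kilobase of annotated exon. On that scale Egfr was the most abundant member in both regions, at 35.1 ± 5.45 (SD, n = 8) in Ctrl and 24.4 ± 6.59 (SD, n = 6) in Distal cells. Errfi1 followed with 23.0 ± 6.64 (SD) and 18.5 ± 4.85 (SD), and Lrig1 with 7.85 ± 1.67 (SD) and 14.2 ± 1.86 (SD). In Ctrl cells Egfr exceeded Errfi1, and Errfi1 exceeded Lrig1, in 8 of 8 libraries. In Distal cells each of these orders held in 4 of 6 libraries only, so the neighbours were not apart beyond their spread there.

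The lower part of that order differed between the regions. In Ctrl cells Erbb3 (5.38 ± 1.32 CPM per kilobase, SD), Lrig2 (4.71 ± 1.46) and Erbb2 (3.87 ± 0.837) lay close together, and Erbb3 exceeded Lrig2 in 5 of 8 libraries. The places of Lrig2 and Lrig3 depend on the length used, here the union of exons. That union has 11755 bases for Lrig2 and 8347 for Lrig3, and their longest transcripts have 7099 and 4016. For Erbb3 both lengths are 6016. Levels per longest transcript were not computed. In Distal cells Erbb2 stood at 10.1 ± 2.02 (SD), above Erbb3 (3.14 ± 1.47) and Lrig2 (2.24 ± 0.731). Erbb2 exceeded Erbb3 per kilobase in 1 of 8 Ctrl and 6 of 6 Distal libraries, and it exceeded Lrig2 in the same numbers of libraries. With the union of exons as length, Lrig3 was the lowest member in every library, at 0.901 ± 0.306 (SD) and 1.26 ± 0.526 (SD). Among all tested genes ranked by average log2 CPM, which is not per length, Egfr lay at the 95th percentile and Lrig3 at the 25th. Erbb4, the remaining ErbB receptor gene, had 0 counts in all 14 libraries, which allows at most 0.445 to 1.20 CPM in a library (3 counts, counting error only).

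**Figure D1:**
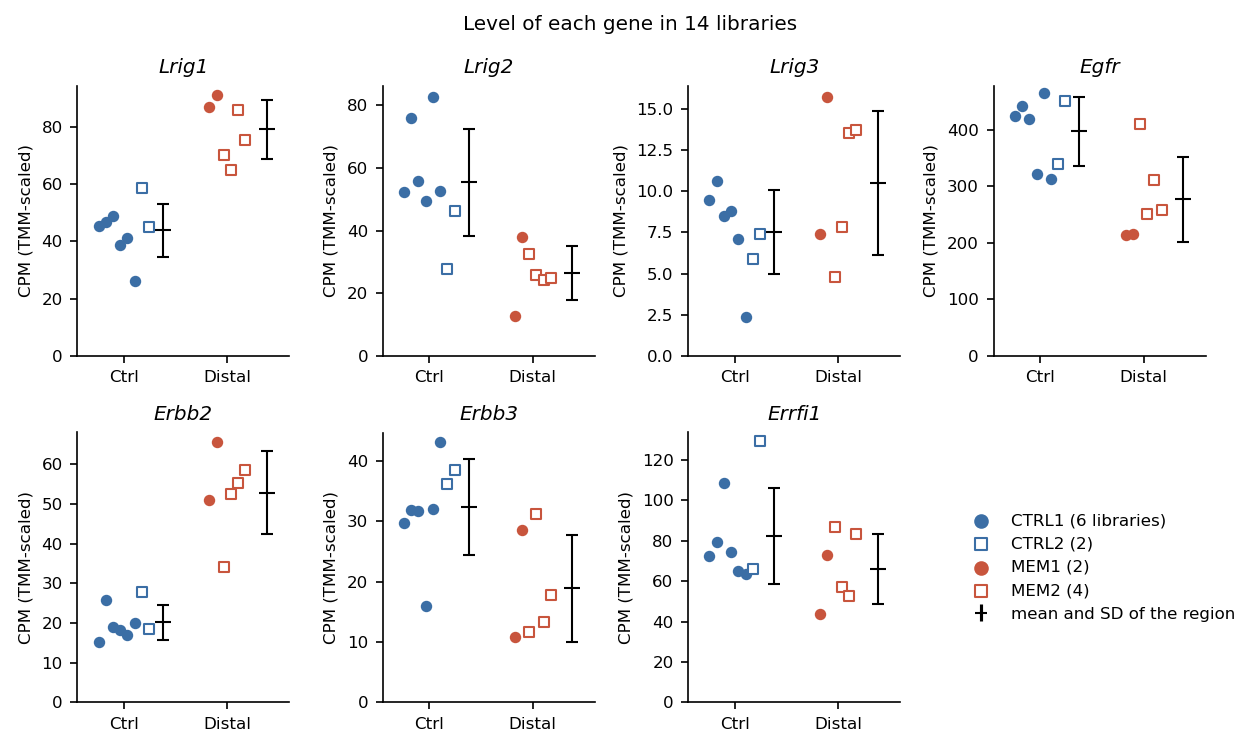
TMM-scaled CPM of each of the 7 genes (vertical axes, each from 0) in the 8 Ctrl and 6 Distal libraries; points are libraries, symbols mark the 4 sets, and the cross with bars is the mean and SD of the region. Lrig1 and Erbb2 are the panels in which no Distal library reaches down to a Ctrl library.

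Lrig1 lies on the minus strand of chromosome 6 (94604529 to 94700158, GRCm38), with 22 exons in the union of its transcripts. Ctrl libraries had 26.0, 45.3 and 58.7 CPM of Lrig1 (lowest, median, highest) and Distal libraries 65.0, 80.8 and 91.1 CPM. Every Distal library lay above every Ctrl library, with the Ctrl minimum in replicate 6 and the Ctrl maximum in replicate 7, a library of the set CTRL2. The log2 fold change, Distal minus Ctrl, was 0.85 ± 0.17 (SE; edgeR quasi-likelihood adjusted p = 0.00046). Fold changes are to be read against a median of -0.16 over all tested genes, which was 0.00 with upper-quartile scaling. No member had another direction with that scaling or with the size factors of DESeq2. The call was lost without the set CTRL1 (0.63, edgeR adjusted p = 0.0877) and with only the libraries over 4000000 counts, 8 Ctrl and 2 Distal (0.64, edgeR adjusted p = 0.132). In bulk RNA, a change in the share of cells that express a gene and a change in transcript per cell cannot be told apart. Of the exon bases of Lrig1, 2.58% (144 bases) overlap Slc25a26 on the opposite strand, and the sources used here do not say whether counting used strand.

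Erbb2, on the plus strand of chromosome 11 (98412470 to 98437716), had the largest fold change of the 7 members. Ctrl libraries had 15.2, 18.7 and 27.8 CPM of Erbb2 (lowest, median, highest) and Distal libraries 34.1, 53.9 and 65.5 CPM. The regions did not overlap, and Distal replicate 3 was the Distal library nearest to the Ctrl range. The log2 fold change was 1.39 ± 0.19 (SE), 2.61-fold, with an edgeR adjusted p of 1.6e-05. Distal replicate 3 was also the Distal library with the highest sum of fibroblast markers (Col1a2 at 74.2 CPM), and without it the log2 fold change of Erbb2 was 1.62 (edgeR adjusted p = 2.6e-06). Ctrl replicate 1, the Ctrl library with the highest such sum, had the lowest Erbb2 level. Without it the value was 1.34 (edgeR adjusted p = 4.5e-05). Distal replicate 3 was also the deepest Distal library, with 4513518 counts. Whether depth or the fibroblast markers bear on the Erbb2 level was not tested.

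Lrig2, whose product is an LRIG protein with a less settled role in ErbB signalling, lies on the minus strand of chromosome 3 (104396418 to 104511918). Ctrl libraries had 27.7, 52.6 and 82.7 CPM of Lrig2 (lowest, median, highest) and Distal libraries 12.7, 25.4 and 38.0 CPM. The regions overlapped through Ctrl replicate 7, the lowest Ctrl library, and Distal replicates 2 and 3. The log2 fold change was -1.07 ± 0.25 (SE; edgeR adjusted p = 0.0021). Summing counts per set ended the call (-0.77, edgeR adjusted p = 0.115), as did leaving out the set CTRL1 (-0.45, edgeR adjusted p = 0.396). The 3 noncoding genes that the annotation places inside introns of Lrig2 on the same strand share no exon base with it.

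Lrig3, the remaining LRIG gene (chromosome 10, 125966168 to 126015359, plus strand), was measured from only 10 to 57 counts per library. Ctrl libraries had 2.37, 7.96 and 10.6 CPM (lowest, median, highest) and Distal libraries 4.81, 10.7 and 15.7 CPM. The regions overlapped broadly, and the log2 fold change of 0.47 ± 0.35 (SE) did not pass (edgeR adjusted p = 0.275). In the libraries over 4000000 counts it was -0.24, of the other sign (edgeR adjusted p = 0.824).

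Egfr, the main EGF receptor of keratinocytes, spans chromosome 11 from 16752203 to 16918158 on the plus strand, with 30 exons in the union of its transcripts. Ctrl libraries had 314, 422 and 464 CPM of Egfr (lowest, median, highest) and Distal libraries 214, 255 and 411 CPM. Distal replicate 3 lay within the Ctrl range, and the other Distal libraries lay below every Ctrl library. The log2 fold change was -0.52 ± 0.16 (SE; edgeR adjusted p = 0.0143). The call was lost without Ctrl replicate 8, where the value was -0.40, and without Distal replicates 1, 2, 4 or 6, where it was -0.38, -0.37, -0.39 and -0.42 (edgeR adjusted p = 0.0522 to 0.0810). It was also lost with upper-quartile scaling (-0.36, edgeR adjusted p = 0.0590).

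Erbb3 encodes the receptor that couples ERBB2 to PI3 kinase (chromosome 10, 128567523 to 128589652, minus strand). Ctrl libraries had 16.0, 31.9 and 43.1 CPM of Erbb3 (lowest, median, highest) and Distal libraries 10.9, 15.5 and 31.2 CPM. Ctrl replicate 4 was the low Ctrl library, and Distal replicates 2, 4 and 6, at 28.5, 31.2 and 17.8 CPM, lay within the Ctrl range. The log2 fold change was -0.77 ± 0.28 (SE; edgeR adjusted p = 0.027). The call was lost without any of Ctrl replicates 6, 7 and 8 (-0.61, -0.66 and -0.64) or Distal replicates 1, 3, 5 and 6 (-0.57, -0.55, -0.59 and -0.67), with edgeR adjusted p of 0.0665 to 0.118. In the set CTRL1 Erbb3 averaged 30.7 CPM and in CTRL2 37.3 CPM, against 19.7 CPM in MEM1 and 18.5 CPM in MEM2. Erbb3 is also a gene of melanocytes and Schwann cells. Of the 9 markers of these cells 7 had a count, and they summed to 22.0 to 50.1 CPM in Ctrl and 12.7 to 41.0 CPM in Distal libraries, most of it from Mitf (means of 34.0 and 22.1 CPM), while Dct and Sox10 were at 0.

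Errfi1, the feedback inhibitor of EGFR, lies on chromosome 4 (150853919 to 150868892, plus strand). Ctrl libraries had 63.6, 73.6 and 129 CPM of Errfi1 (lowest, median, highest) and Distal libraries 43.9, 65.2 and 86.6 CPM. The ranges overlapped, and Ctrl replicates 3 and 8 alone exceeded all Distal libraries. The log2 fold change of -0.32 ± 0.20 (SE) did not pass (edgeR adjusted p = 0.20).

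In all, 5 of the 7 members passed the threshold, 2 higher and 3 lower, against 48.3% of all tested genes (24.3% higher and 24.1% lower). The 2 members with every Distal library above every Ctrl library, Lrig1 and Erbb2, compare with 12.7% of tested genes with that property. With 7 genes and a background of this size, nothing particular to the members is read from the count. With counts summed per set, Lrig1 (0.93) and Erbb2 (1.47) were past the threshold, where 19.2% of genes were.

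Between the 2 sets of a region, no member passed, and neither did any tested gene (0.0% in Ctrl and 0.0% in Distal, edgeR quasi-likelihood test); 969 genes in Ctrl and 921 in Distal had an unadjusted p below 0.05. The largest differences among the members were those of Lrig2, with a log2 fold change of -0.74 ± 0.36 (SE, CTRL2 minus CTRL1; edgeR adjusted p = 0.611), and of Egfr, with 0.52 ± 0.25 (SE, MEM2 minus MEM1; edgeR adjusted p = 0.637). For Egfr this difference between sets of the Distal region was as large as that between the regions. Lrig1 averaged 41.2 CPM in CTRL1 and 52.0 CPM in CTRL2, and 88.9 CPM in MEM1 and 74.2 CPM in MEM2. Erbb2 averaged 19.2 CPM in CTRL1 and 23.1 CPM in CTRL2, and 58.2 CPM in MEM1 and 50.1 CPM in MEM2. For both genes the Distal sets lay above the Ctrl sets.

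Across all tested genes the fold change between the regions moved with the GC content of the transcripts. The median log2 fold change was -0.89, -0.57, -0.17, 0.50 and 1.09 in 5 equal bins of genes from the lowest to the highest GC content. Erbb2, with 57.3% GC, lies in the top bin, in which 67.2% of genes were called higher. Lrig1 (52.6% GC) and Lrig3 (52.9%) lie in bin 4, in which 40.3% were called higher. Egfr (48.6%) and Erbb3 (51.2%) lie in bin 3, where 19.7% were called lower, and Lrig2 (44.9%) and Errfi1 (47.5%) in bin 2, where 39.7% were called lower. The 3 members with the highest GC content thus had positive fold changes and the other 4 had negative ones. Library depth moves with the same contrast. With every library thinned to the smallest total, Erbb2 had a log2 fold change of 1.44, Lrig1 0.99, Lrig2 -0.998 and Egfr -0.45, all past the threshold, whereas in the libraries over 4000000 counts Erbb2 alone passed, at 1.12 (edgeR adjusted p = 0.0259).

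**Figure D2:**
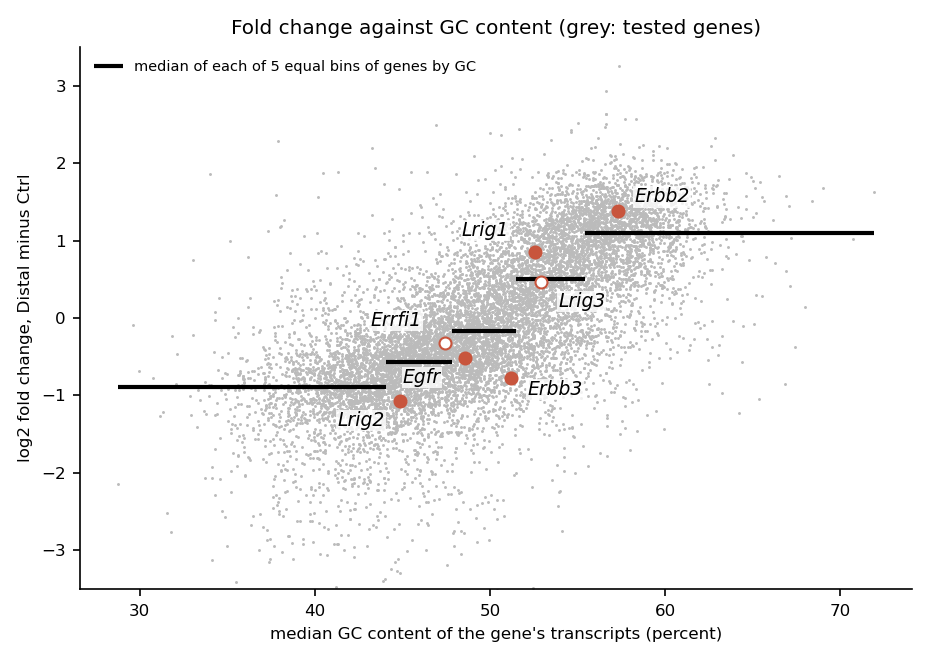
Log2 fold change, Distal minus Ctrl (vertical axis), against the median GC content of a gene's transcripts in percent (horizontal axis); grey points are tested genes, 12 of which lie outside the plotted range, and black lines are the medians of the 5 bins. The 7 members are in red, filled where the adjusted p was below 0.05; Erbb2 and Lrig1 sit above the medians of their bins, and Erbb3 lies furthest below its own.

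When a smooth trend with GC content and length was removed from each library, 18.4% of genes were called, and Erbb2 was the only member among them (log2 fold change 0.59 ± 0.17, SE; edgeR adjusted p = 0.0187). Lrig1 had 0.39 ± 0.17 (SE; edgeR adjusted p = 0.12) and Lrig2 -0.34 ± 0.24 (SE; edgeR adjusted p = 0.36). Erbb3 changed least, to -0.74 ± 0.28 (SE), but did not pass (edgeR adjusted p = 0.0745). Egfr had -0.36 ± 0.17 (SE; edgeR adjusted p = 0.149), Errfi1 0.16 ± 0.19 (SE; edgeR adjusted p = 0.611) and Lrig3 0.00 ± 0.34 (SE; edgeR adjusted p = 0.994). The result for Egfr depends on which transcript stands for the gene. Its longest transcript of 10208 bases has 44.4% GC, and with the values of the longest transcripts the fold change of Egfr was 0.25, of the other sign (edgeR adjusted p = 0.20). With the trend removed from counts summed per set, Erbb2 did not pass either (0.68, edgeR adjusted p = 0.160), the only one of 30 alternatives in which its call was lost. With the longest transcripts Erbb2 (0.51) and Erbb3 (-0.85, edgeR adjusted p = 0.0412) were past the threshold.

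**Figure D3:**
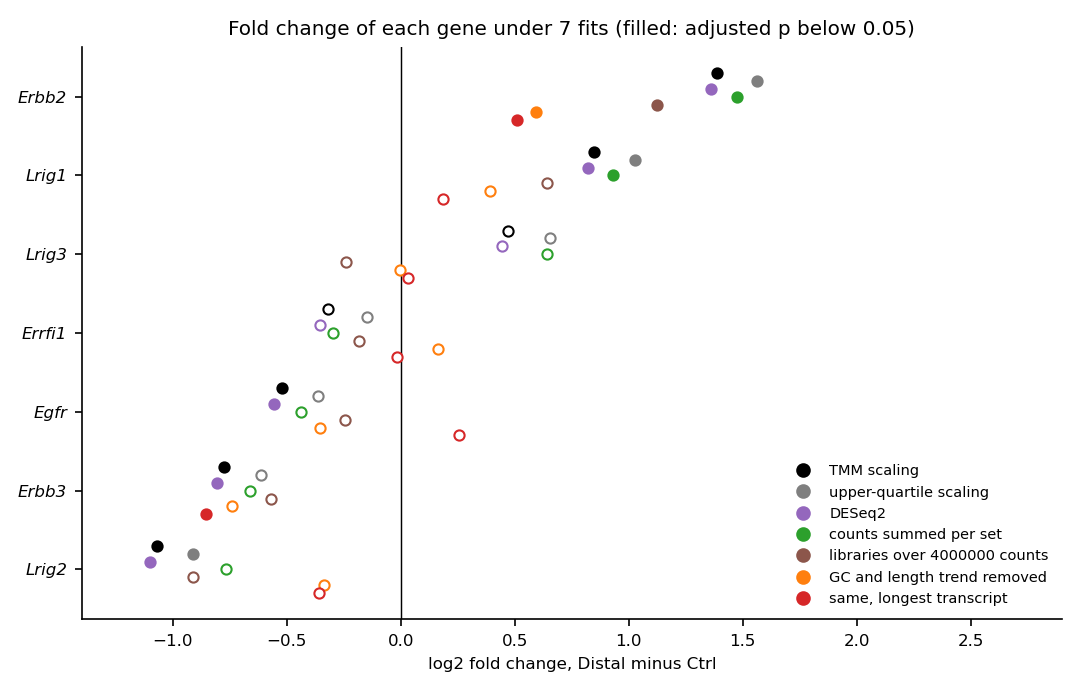
Log2 fold change of each gene, Distal minus Ctrl (horizontal axis), under 7 ways of fitting the counts, with filled points where the adjusted p was below 0.05. Erbb2 is filled in these 7 and stays above 0 (the fit on summed counts with the trend removed, in which it did not pass, is not drawn), whereas the points of Lrig3, Errfi1 and Egfr lie on both sides of 0.

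The balance of restraining and receptor transcripts was taken within each library, as log2 of the ratio of CPM (prior count 2), in which the scaling between libraries cancels apart from the prior count. Ratios of other gene pairs were not computed, so there is no background share for the ratios tested here. Lrig1 over Egfr was -3.18 ± 0.32 (SD, n = 8) in Ctrl and -1.77 ± 0.48 (SD, n = 6) in Distal libraries. Of the Distal libraries, 5 of 6 lay above every Ctrl library, and Distal replicate 3, at -2.54, lay just below the highest Ctrl library, replicate 7, at -2.52. The difference of 1.41 had an adjusted p of 0.00133 over 6 ratios (two-sided exact permutation test over 3003 regroupings, whose smallest p is 0.000333). With the GC and length trend removed it was 0.80 (exact permutation, adjusted p = 0.0040). No ratio was computed with the values of the longest transcripts. In that fit the log2 fold changes of Lrig1 and Egfr were close, at 0.19 and 0.25, so the rise of this ratio may depend on the transcript chosen. Without the set CTRL1 the difference of the ratio kept its direction, at 1.14, with an adjusted p of 0.107 (exact permutation). With 2 Ctrl libraries left, the smallest unadjusted p is 0.0357.

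Lrig1 over Erbb3 had the same direction as Lrig1 over Egfr. It rose from 0.45 ± 0.56 (SD) in Ctrl to 2.15 ± 0.71 (SD) in Distal libraries, a difference of 1.70 (exact permutation, adjusted p = 0.00133), and 1.23 with the trend removed (exact permutation, adjusted p = 0.0160). Lrig1 over Erbb2 went the other way, from 1.10 ± 0.36 (SD) to 0.60 ± 0.27 (SD), a fall of 0.50 on the log2 scale (exact permutation, adjusted p = 0.0290). Leaving out Distal replicate 2 or 6 ended that call (-0.48 and -0.46, exact permutation, adjusted p = 0.0501 and 0.0548), as did removing the trend (-0.16, exact permutation, adjusted p = 0.50).

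Errfi1 over Erbb2 fell from 1.99 ± 0.50 (SD) to 0.31 ± 0.56 (SD), a difference of -1.68 (exact permutation, adjusted p = 0.00133), and 5 of 6 Distal libraries lay below every Ctrl library. With the trend removed the difference was -0.41 and did not pass (exact permutation, adjusted p = 0.139). Errfi1 over Egfr differed by 0.23 and Errfi1 over Erbb3 by 0.53, and neither passed (exact permutation, adjusted p = 0.259 and 0.157). With the trend removed they were 0.55 and 0.98, and both passed (exact permutation, adjusted p = 0.0250 for each). With the longest transcripts, for which no ratio was computed, the log2 fold change of Errfi1 was -0.018 and that of Egfr 0.25. The rise of Errfi1 over Egfr thus may not hold with that choice of transcript. Without Distal replicate 4, Errfi1 over Erbb3 was 0.73 (exact permutation, adjusted p = 0.0466).

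**Figure D4:**
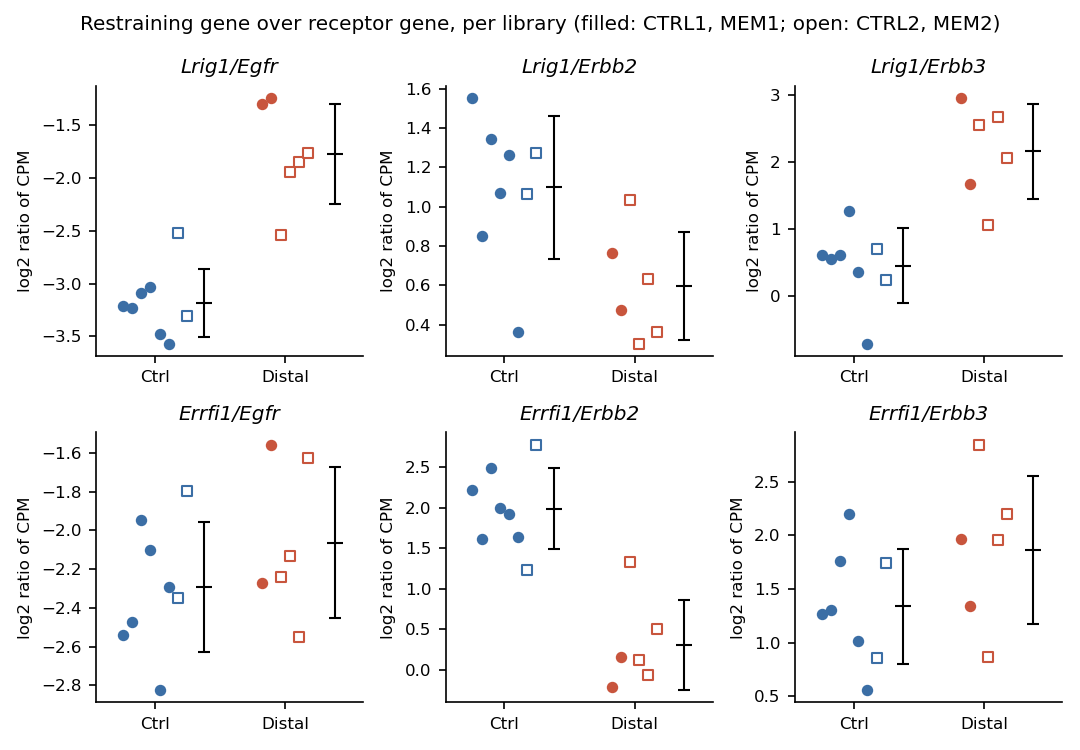
Log2 ratio of CPM of Lrig1 (top) or Errfi1 (bottom) to Egfr, Erbb2 and Erbb3, per library in Ctrl (blue) and Distal (red), with mean and SD; the vertical axes differ between panels and do not start at 0. Lrig1 over Egfr and Lrig1 over Erbb3 are higher in Distal libraries, and Errfi1 over Erbb2 is lower.

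The makeup of the receptor transcripts is given as a description, without a test. Erbb2 over Erbb3 ranged from -1.08 to 0.19 on the log2 scale in Ctrl and from 0.74 to 2.18 in Distal libraries, without overlap. Egfr over Erbb2 was 4.28 ± 0.42 (SD) in Ctrl and 2.37 ± 0.64 (SD) in Distal libraries, also without overlap. Egfr over Erbb3 was 3.63 ± 0.44 (SD) and 3.93 ± 0.86 (SD) and overlapped. With the GC and length trend removed, both ratios with Erbb2 overlapped, at -0.30 and 1.09 for Erbb2 over Erbb3 and 3.87 and 2.91 for Egfr over Erbb2 (means in Ctrl and Distal). The share of all gene pairs whose ratios do not overlap was not computed. Nothing particular to the receptors is therefore read from these ratios.

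The rest of the pathway was read from 6 lists with 71 genes, of which 66 were tested. In these lists 18 genes were higher and 20 lower in Distal cells, with a median log2 fold change of -0.22 against -0.16 over all tested genes, of which 24.3% were higher and 24.1% lower. The list medians were -0.18 for ligands, 0.16 for ligand release, 0.0025 for adaptors and kinases, 0.17 for RAS to ERK, -0.37 for down-regulation and -0.00013 for ERK targets. With the GC and length trend removed, 5 genes were higher and 9 lower, where 18.4% of all genes were called in either direction.

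Of 11 ligand genes, 7 were tested and 2 passed, both lower in Distal cells. Epgn, which encodes epigen, a ligand of EGFR, had 160 to 301 CPM in Ctrl and 54.1 to 157 CPM in Distal libraries. Every Distal library lay below every Ctrl library, as in 5.65% of tested genes, and the log2 fold change was -0.96 ± 0.22 (SE; edgeR adjusted p = 0.0014). Areg, which encodes the EGFR ligand amphiregulin, had 60.5 to 137 CPM in Ctrl and 28.9 to 78.4 CPM in Distal libraries (log2 fold change -0.67 ± 0.24, SE; edgeR adjusted p = 0.0249). Its call was lost without any of 6 libraries (Ctrl replicates 6, 7 and 8 and Distal replicates 1, 2 and 4), with values of -0.42 to -0.59. Hbegf (0.080), Nrg1 (-0.15) and Tgfa (-0.18) did not pass. Ereg, the gene of epiregulin, was singled out after its values were seen, because Distal replicate 4 had 123 CPM while the median of the Distal libraries was 12.5 CPM. Once the trend was removed, Epgn (-0.25) and Areg (-0.47) did not pass and Tgfa did, at -0.67 (edgeR adjusted p = 0.0359). Egf, Nrg2, Nrg3 and Nrg4 did not reach the filter on low counts.

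The 4 genes for ligand release passed, as 48.3% of all tested genes did, and they differed in direction. The sheddases Adam17 (log2 fold change -1.11) and Adam10 (-0.86) were lower, and Rhbdf1 (1.17) and Rhbdf2 (1.31), which encode the iRhom partners of ADAM17, were higher. The call of Adam10 was lost without Ctrl replicate 3 or 8 or Distal replicate 1, 2 or 6, with values from -0.80 to -0.65. None of the 4 passed once the trend was removed, at -0.40, -0.27, 0.025 and 0.40 in the same order (edgeR adjusted p = 0.134, 0.512, 0.944 and 0.321).

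Among 16 adaptor and kinase genes, 4 were higher and 5 lower. Akt1 averaged 65.7 ± 16.0 CPM (SD, n = 8) in Ctrl and 212 ± 45.4 CPM (SD, n = 6) in Distal libraries and rose by 1.69 on the log2 scale, and Akt2 rose by 1.32. Sos1, which encodes a RAS exchange factor, had a log2 fold change of -1.43. Pik3r1, the gene of the regulatory subunit p85 alpha, averaged 22.7 ± 9.53 CPM (SD) in Ctrl and 5.90 ± 2.45 CPM (SD) in Distal libraries, for a log2 fold change of -1.95. The fit without the trend called 1 higher and 2 lower: Akt1 (0.62), Pik3r1 (-1.39) and Src (-0.76).

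Of the 10 genes from RAS to ERK, 4 were higher and 3 lower. Hras (1.48) encodes a RAS GTPase, and Map2k2 (1.62) encodes MEK2, a kinase that activates ERK. Both were higher in every Distal library than in every Ctrl library, as were 12.7% of tested genes. The transcripts of Hras had 57.6% GC and those of Map2k2 57.3%, values of the top bin of GC content. In the fit without the trend, Hras (0.46) and Map2k2 (0.62) were among the 3 genes past the threshold, and none of the list was lower.

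Among 16 genes of receptor down-regulation and sorting, 3 were higher and 6 lower. Usp8, which encodes a deubiquitinase of endocytosed EGFR, had a log2 fold change of -1.15. It was lower in every Distal library than in every Ctrl library, as were 5.65% of tested genes. Cd2ap (-1.20) and Stam (-0.88), genes of adaptors in receptor sorting, were lower, and Cblc (1.66), the gene of an epithelial ubiquitin ligase of the CBL family, was higher. Among these genes, removing the trend left Usp8 (-0.52, edgeR adjusted p = 0.0431) and Ptpn1 (-0.62) lower and Socs4 (0.69) higher.

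Of 14 genes known as transcriptional targets of ERK, 13 were tested, 5 were higher and 2 lower. Myc averaged 51.0 ± 7.31 CPM (SD) in Ctrl and 114 ± 26.6 CPM (SD) in Distal libraries and rose by 1.16 on the log2 scale, and Fosl1 rose by 1.52. Fos, an immediate early gene, averaged 90.6 ± 26.5 CPM (SD) in Ctrl and 40.5 ± 11.9 CPM (SD) in Distal libraries and fell by 1.16 on the log2 scale (edgeR adjusted p = 0.00050). Dusp6, the gene of the ERK phosphatase, had -0.83 (edgeR adjusted p = 0.0017). The targets thus did not move in 1 direction. With the trend removed, Fos (-2.04), Dusp6 (-0.64), Ccnd1 (-1.15) and Phlda1 (-1.02) were lower and none was higher.

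**Figure D5:**
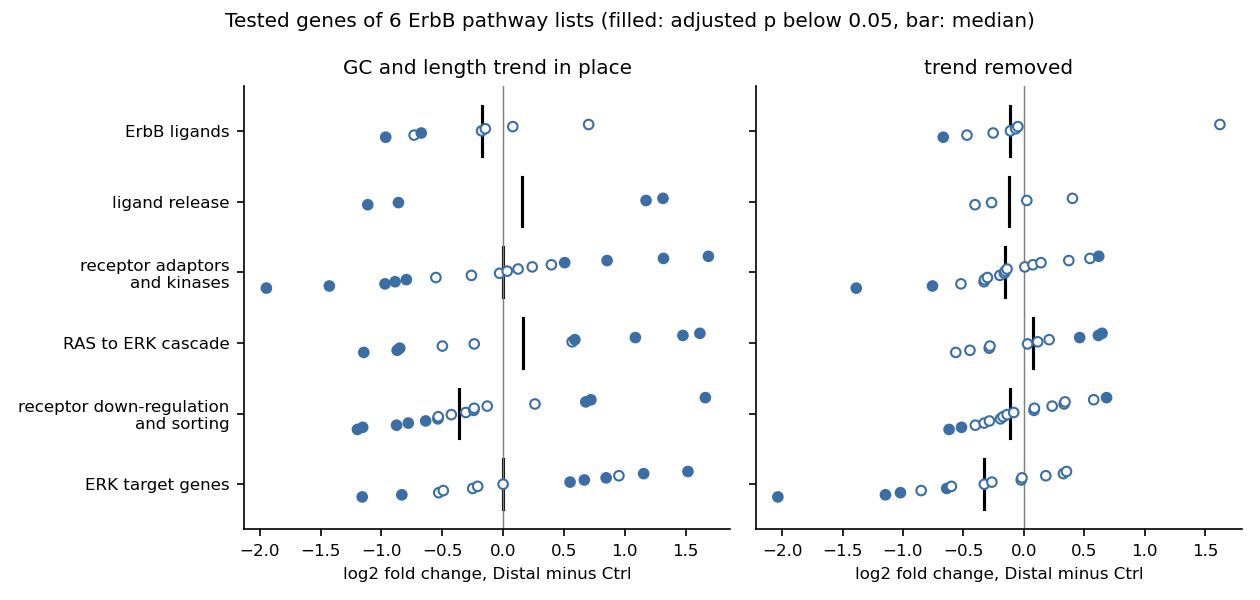
Log2 fold change, Distal minus Ctrl (horizontal axes), of the tested genes of 6 pathway lists, with the GC and length trend in place (left) and removed (right); points are genes, filled where the adjusted p was below 0.05, and bars are list medians. On the left every list but the ligands holds filled points on both sides of 0; on the right 14 filled points are left.

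How the members varied among libraries of the same set was described by Pearson's r of log2 CPM, with no test. Values were taken as the deviation from the set mean, over 14 libraries. Libraries of a set differed in depth, with totals of 2137934 to 4513518 in MEM2, and in composition, and r was adjusted for composition in no way beyond TMM scaling. Lrig1 and Lrig3 varied together (r = 0.74), as did Lrig2 and Errfi1 to a lesser degree (0.56). Ctrl replicate 6 was the lowest library for both Lrig1 (26.0 CPM) and Lrig3 (2.37 CPM, from 10 counts). The r of Lrig1 and Lrig3 leans on that library and was not computed without it. Egfr and Erbb2 varied in opposite senses (-0.54), and Lrig1 was weakly related to Egfr (0.36), Erbb2 (0.21) and Erbb3 (-0.27). Among 9114 genes with an average log2 CPM of at least 3, the nearest to Lrig1 were Evpl (r = 0.89), Rbl2 (0.88) and Ehbp1l1 (0.88). The nearest to Egfr were Zfp950 (0.89), Sar1b (0.87) and Fnip1 (0.84), and to Erbb2 B230216N24Rik (0.88), Afap1l1 (0.88) and Ercc5 (0.87). For Lrig2 they were Avl9 (0.87), Acvr1 (0.84) and Cobll1 (0.84), and for Lrig3 Atxn3 (0.92), Alg14 (0.91) and Rnf167 (0.91). For Erbb3 they were Heatr5b (0.88), Emsy (0.85) and Edem1 (0.85), and for Errfi1 Zmym5 (0.88), Ccser2 (0.86) and Fpgt (0.84). No member was among the 3 nearest genes of another member.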

How the data were processed

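Smart-seq2 cDNA and Nextera XT libraries were sequenced in bulk, per the labels' protocols. The table used holds raw counts by gene symbol, deposited without normalisation. The submitters' processing notes name HISAT2 as the aligner, featureCounts as the counter and mm10/GRCm38 as the build. How strand and reads matching several genes were treated is not stated in the sources used here.

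Groups came from the region label of each sample, and sets from its description. Within sets, the 23 pairs of libraries all differed beyond counting noise (chi-square over its degrees of freedom 6.83 to 40.0). The whole table was fitted in R 4.3.3 with edgeR 4.0.16, using its default expression filter, TMM factors and robust quasi-likelihood F tests (two-sided). Benjamini-Hochberg adjustment ran over all tested genes, and an adjusted p under 0.05 passed. Each SE was derived from the fold change and its F value. Ratios were tested with exact permutation tests adjusted over 6 ratios.

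Exon lengths, positions and GC content (median over a gene's transcripts) were read from GENCODE's GRCm38 annotation, and 99.1% of tested genes had a GC value. To remove the trend, natural splines (4 degrees of freedom) of GC and log2 length were fitted to the departures of each library from the average library, and the fitted values became edgeR offsets. Alternatives were upper-quartile and DESeq2 1.42.0 scaling, DESeq2 itself, no filter, sums per set, deeper libraries only, thinned counts, blocks, another prior count, and leaving out each library and set. The use of the longest transcript was added after seeing the data.

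The members, lists and alternatives were chosen with earlier results of these data known. The text names all members, up to 4 genes of each list that passed with the smallest p, genes that a count singles out, and the 3 genes nearest each member. Some genes of the lists are not reported here by name, though the counts include them. The code was tested on simulated data.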

Additional observations from a re-analysis of the deposited data

How the results depend on the processing

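Of 30 other ways to fit the counts, Erbb2 was past the threshold in 29, Lrig1 in 25, Lrig2 in 23, Egfr in 17 and Erbb3 in 12, whereas Lrig3 and Errfi1 were past it in none. Most of these fits leave out 1 library or set and keep the GC and length trend, so they overlap and are not independent support. In the fits with the trend removed, by library, by summed counts or with the longest transcripts, none of Lrig1, Lrig2 and Egfr passed. The number of genes called, 5681, was 2784 with sums per set, 2142 with the GC and length trend removed, 0 with both, 1885 with the trend of the longest transcripts removed, 1243 with libraries over 4000000 counts and 2267 without the set CTRL1. In the fit with both, 0 of 14321 genes were called by edgeR, and 2718 had an unadjusted p below 0.05; no other tool was run on it. Summing counts per set ended the calls of members with log2 fold changes of -0.77 for Lrig2, -0.44 for Egfr and -0.66 for Erbb3. Removal of the trend gave 0.39 for Lrig1, -0.34 for Lrig2, -0.36 for Egfr and -0.74 for Erbb3, while Lrig3 (0.00, listed as -0.0048) and Errfi1 (0.16) changed sign. With both, they were 0.41 for Lrig1, -0.013 for Lrig2, -0.34 for Egfr, 0.68 for Erbb2 and -0.69 for Erbb3, and 0.14 for Errfi1, of the other sign. With the longest transcripts, they were 0.19 for Lrig1 and -0.36 for Lrig2, and 0.25 for Egfr, of the other sign. With deeper libraries, they were 0.64 for Lrig1, -0.91 for Lrig2, -0.24 for Egfr and -0.57 for Erbb3, and -0.24 for Lrig3, of the other sign. With upper-quartile scaling the calls of Egfr (-0.36) and Erbb3 (-0.61) were lost, and with thinned counts that of Erbb3 (-0.66). Without CTRL1 the calls of Lrig1 (0.63), Lrig2 (-0.45), Egfr (-0.48) and Erbb3 (-0.95) were lost, without CTRL2 that of Erbb3 (-0.61), without MEM1 those of Egfr (-0.29) and Erbb3 (-0.73), and without MEM2 those of Lrig2 (-1.14) and Erbb3 (-0.72). The cause was not tested.

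Leaving out each library in turn gave 4911 to 5842 called genes, and log2 fold changes of 0.83 to 1.03 for Lrig1, -1.12 to -0.84 for Lrig2, 0.43 to 0.75 for Lrig3, -0.56 to -0.37 for Egfr, 1.34 to 1.62 for Erbb2, -0.88 to -0.55 for Erbb3 and -0.36 to -0.10 for Errfi1. The ratio differences were then 1.30 to 1.56 for Lrig1 over Egfr, -0.61 to -0.44 for Lrig1 over Erbb2, 1.54 to 1.93 for Lrig1 over Erbb3, 0.13 to 0.33 for Errfi1 over Egfr, -1.89 to -1.57 for Errfi1 over Erbb2 and 0.33 to 0.73 for Errfi1 over Erbb3. In the fit without the trend, Lrig1 over Erbb2 (-0.16) and Errfi1 over Erbb2 (-0.41) lost the call, and Errfi1 over Egfr (0.55) and Errfi1 over Erbb3 (0.98) gained it. Ratios were not computed with the longest transcripts. Without CTRL1, with 2 Ctrl libraries left, the calls of Lrig1 over Egfr (1.14), Lrig1 over Erbb2 (-0.57), Lrig1 over Erbb3 (1.69) and Errfi1 over Erbb2 (-1.70) were lost; the 28 regroupings then left allow no unadjusted p below 0.0357, so that adjustment over 6 ratios leaves almost no room for a call and the loss says nothing about stability. That of Lrig1 over Erbb2 was also lost without CTRL2 (-0.48), MEM1 (-0.51) or MEM2 (-0.48).

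Replicate numbers did not pair the libraries: of 6 numbers, 1 had a correlation of deviations over 0.1 (range -0.017 to 0.11), and 1 Ctrl library correlated best with its own number. With the replicate block on 12 libraries, 5365 genes were called and Erbb3 lost its call (-0.68, edgeR adjusted p = 0.105). Named list genes that changed sign were Rhbdf1 (-0.086), Cd2ap (0.0070) and Stam (0.011) with the trend removed from summed counts, and Stam (0.026) with the longest transcripts. Between sets, with the trend removed, signs changed for Egfr in Ctrl (0.18) and for Lrig2 (-0.11) and Erbb3 (0.025) in Distal cells, and with upper-quartile scaling for Lrig2 in Distal cells (-0.017).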
